A study of Mus musculus with 58 samples.

Results

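The proximal tubule segment markers are 10 genes chosen by name from the kidney transcripts: 3 markers of the S3 segment (Slc7a13, Kap and Slc27a2) and 7 markers of the S1 and S2 segments (Slc5a2, Slc5a12, Slc6a19, Slc34a1, Lrp2, Cubn and Aqp1). All 10 were found among 24122 genes, and the rule that chose them by name uses no measured value, although earlier results of these data were known when it was written. The segment of each marker is the one the rule gives, and whole kidney RNA cannot show where a marker is made. Aqp1 was also listed as a marker of the thin limb. Transcripts of 1 gene were summed. RNA was sequenced from kidney and liver of male B6C3F1/J mice, a hybrid strain, aged 5 to 6 weeks, although another label of the same samples names C57BL/6. Each mouse had received 1 gavage dose, in the morning between 07:00 and 09:00, of tetrachloroethylene (PCE) at 30, 100, 300 or 1000 mg/kg, of trichloroethylene (TCE) at 24, 80, 240 or 800 mg/kg, or of vehicle alone, which was 5% Alkamuls El-620, a surfactant, in saline. The labels equate the dose levels of both solvents to about 0.22, 0.67, 2 and 6 mmol/kg, so that they can be compared at equal molar dose. No source used here gives the time between dosing and sampling, or what a shared replicate number stands for. The 29 kidney libraries form 10 groups of 3, with a vehicle group for each solvent, except that the PCE vehicle group has 2. A further 29 libraries are from liver. Every dose group was set against the vehicle group of its own solvent, so the 4 doses of a solvent share their vehicle libraries.

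The proximal tubule recovers most of what the glomerulus filters. Its early convoluted part, S1 and S2, takes back glucose, amino acids, phosphate and, by endocytosis, filtered protein, while the straight S3 part in the outer medulla takes up remaining solutes, organic anions and fatty acids. S3 is where several androgen-dependent genes of the male mouse kidney are made. PCE and TCE are chlorinated solvents that differ by a chlorine in PCE where TCE has hydrogen. Both are oxidized in the liver and conjugated with glutathione, and products of the conjugates are taken up by proximal tubule cells.

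Promoter sequence from RefSeq (GRCm38.p6) was at hand for 7 of the 10 markers, not for Slc7a13, Slc5a2 and Slc5a12. The 250 bases before the start site are shown for the S3 markers Kap and Slc27a2, because Kap was called lower in kidney and Slc27a2 higher in liver. Both windows are written 5′ to 3′ on the strand of the gene, and capitals mark a motif found by script. Kap (chr6:133853668-133853917, minus strand) has TATAAA, the core of the TATA box, from 31 to 26 bases before its start. Slc27a2 (chr2:126552774-126553023, plus strand) has AGGTCA, the hexamer to which many nuclear receptors bind, on the opposite strand from 220 to 215 bases before its start, where the gene's strand reads TGACCT.
Kap: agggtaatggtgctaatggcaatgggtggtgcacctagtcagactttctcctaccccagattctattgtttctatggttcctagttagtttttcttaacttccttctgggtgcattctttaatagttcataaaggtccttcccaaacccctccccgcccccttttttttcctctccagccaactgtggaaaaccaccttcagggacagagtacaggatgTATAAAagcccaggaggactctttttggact
Slc27a2: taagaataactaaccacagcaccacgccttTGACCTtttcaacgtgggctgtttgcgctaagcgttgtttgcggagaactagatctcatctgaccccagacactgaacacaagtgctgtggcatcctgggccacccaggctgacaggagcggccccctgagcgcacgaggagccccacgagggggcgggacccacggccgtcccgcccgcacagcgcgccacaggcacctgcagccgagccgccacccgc

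The letters were searched on both strands. TATAAA was in 12.4% of 32851 promoter windows of the same length and AGGTCA in 14.0%, so a match is a description and not a binding site. GTTAAT, bound by the HNF1 factors of tubule cells, was in 6.43% of all windows and occurred in the Slc34a1 window on both strands. TGTTCT, a half-site of the androgen receptor, was in 16.1% of all windows. It was not in the Kap or Slc27a2 window and occurred in those of the S1/S2 markers Slc34a1 and Slc6a19. The Slc6a19 window (chr13:73692637-73692886, minus strand) lies inside that gene by the gene coordinates given below. The Slc34a1 window (chr13:55399398-55399647, plus strand) runs past the first base of its gene. Neither window therefore stands directly before the outer end of its gene, and the matches there belong to other annotated start sites.

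Levels are given as CPM, counts scaled to TMM-normalized library sizes, and as CPM per kilobase of transcript where genes are compared with each other. In the 5 vehicle kidneys, Kap was the most abundant marker, at 75722 ± 9560 CPM per kilobase (SD, n = 5), and took 3.28 to 6.07% of all counts of a kidney library across the 29 libraries. Kap encodes the kidney androgen-regulated protein. Slc34a1, the main phosphate transporter of the brush border, followed at 4642 ± 730.6 CPM per kilobase, and then Slc27a2, an activating enzyme and transporter of long-chain fatty acids, at 2335 ± 274.0. The next 2 were Slc7a13, an S3 transporter of cystine and acidic amino acids, at 658.9 ± 93.0 and the water channel Aqp1 at 566.5 ± 58.8 CPM per kilobase. The ranges of that pair overlapped, so their order is not resolved. Slc5a2, the high-capacity glucose transporter SGLT2, stood at 349.0 ± 114.6 and the endocytic receptor Lrp2 (megalin) at 228.7 ± 5.11 CPM per kilobase, and their ranges overlapped too. Slc6a19, which carries neutral amino acids, was at 73.0 ± 12.3, the vitamin B12 and protein receptor Cubn (cubilin) at 53.3 ± 5.54 and the lactate transporter Slc5a12 at 6.33 ± 2.27 CPM per kilobase.

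**Figure D1:**
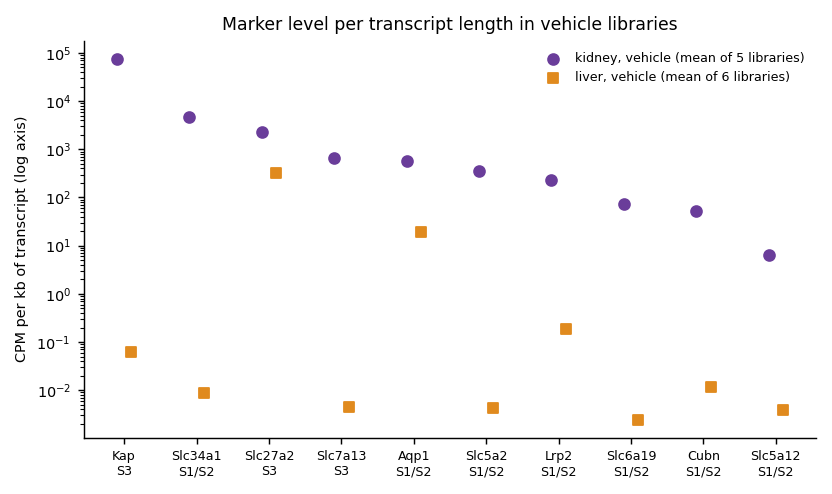
Mean level of each marker in CPM per kilobase of transcript (log axis) in vehicle kidneys (circles, 5 libraries) and vehicle livers (squares, 6 libraries), ordered by kidney level. Slc27a2 and Aqp1 were the markers with more than 10 CPM per kilobase in liver.

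These markers separate the labelled tissues. In the 6 vehicle livers, 7 of the 10 markers averaged 0.132 CPM or less, Kap among them with 0.0449 ± 0.0789 CPM, and 6 of the 10 passed the low-count filter in liver. Slc27a2 was at 957.9 ± 97.3 CPM in vehicle livers, Aqp1 at 51.2 ± 10.7 CPM and Lrp2 at 2.83 ± 0.959 CPM, so these 3 are not specific to the tubule.

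In mm10 coordinates, the S3 marker genes lie on chromosome 4 (Slc7a13, 19818727 to 19842213, plus strand), chromosome 6 (Kap, 133849855 to 133853667, minus strand) and chromosome 2 (Slc27a2, 126553024 to 126588243, plus strand). Chromosome 2 also holds Slc5a12 (110597299 to 110649345, plus strand), Lrp2 (69424335 to 69586029, minus strand) and Cubn (13276338 to 13491876, minus strand). Slc6a19 (73679745 to 73700780, minus strand) and Slc34a1 (55399622 to 55414695, plus strand) are on chromosome 13, Slc5a2 (128265683 to 128272430, plus strand) on chromosome 7 and Aqp1 (55336299 to 55348555, plus strand) on chromosome 6.

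Slc5a12 is the least certain of the levels. RefSeq has 2 transcripts for it, which took 304 to 1598 and 6 to 34 counts in the 29 kidney libraries. Reads shared by overlapping transcripts were set aside as ambiguous by the counting. The counted level may thus be too low, and its place as the lowest marker is not certain. Opposite-strand genes share exon bases with 4 markers: Gm26697 shares 419 with Slc27a2, BC017158 shares 597 with Slc5a2, Pfn3 shares 545 with Slc34a1 and Gm13270 shares 368 with Cubn. Whether the counting used strand is not stated, so reads there cannot be assigned with certainty. Kidney libraries held 23247565 to 32420329 counts each, and all 10 markers passed the low-count filter in kidney.

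Some kidney libraries stood apart in markers of other cells. Replicate 3 of 0.67 mmol/kg TCE had 2864 CPM summed over 4 markers of the adrenal cortex, against 0.0405 and 0.0336 CPM in the other replicates of its group. Replicate 2 of 2 mmol/kg TCE had 819.5 CPM over 4 markers of collecting duct principal cells, against 380.1 and 351.9 CPM in the others of its group, and 12759 CPM over the 7 S1/S2 markers, against 19116 and 19052 CPM. In the TCE vehicle group, replicate 1 had 125.4 CPM over 5 podocyte markers, against 255.8 and 338.2 CPM in the others. Libraries also differed in chi-square per degree of freedom between replicates, over well-counted genes. Replicate 3 of TCE vehicle had 122.7 and 142.45 against replicates 1 and 2, which had 23.33 between them. Replicate 1 of 6 mmol/kg PCE had 72.62 and 60.72 against replicates 2 and 3, which had 18.21 between them. Marker calls that changed without these libraries are given with and without them.

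Slc7a13, the cystine and acidic amino acid transporter of S3, was lower after 6 mmol/kg of either solvent. Kidneys given 6 mmol/kg PCE had 425.8, 631.8 and 576.3 CPM, against 1197 and 1328 CPM in PCE vehicle kidneys. Those given 6 mmol/kg TCE had 771.3, 680.5 and 869.6 CPM, against 1735, 1380 and 1414 CPM in TCE vehicle kidneys. In neither solvent did dosed and vehicle kidneys overlap. The share of all genes without overlap was not counted, so non-overlap of these small groups, here and below, is a description. The log2 fold change was −1.21 ± 0.20 (SE) with PCE (edgeR quasi-likelihood F test, Benjamini-Hochberg adjusted p = 0.00117) and −0.96 ± 0.18 with TCE (adjusted p = 0.0236). The PCE call held in 14 of 14 alternatives, with adjusted p of 4.29e-07 to 0.0327. The TCE call was lost without vehicle replicate 1 (−0.86, adjusted p = 0.228), without dosed replicate 1 (−0.96, adjusted p = 0.122) and without dosed replicate 2 (−0.88, adjusted p = 0.245). In a bulk kidney sample, fewer S3 cells and less RNA per S3 cell cannot be told apart.

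Kap was the other marker lower at 6 mmol/kg PCE, with 36558, 32245 and 31761 CPM in dosed kidneys, against 48758 and 47265 CPM in PCE vehicle kidneys. The groups did not overlap, and the log2 fold change was −0.52 ± 0.12 (edgeR adjusted p = 0.0103). Without the first or the second PCE vehicle library the call was lost, at adjusted p = 0.129 and 0.0998 and log2 fold changes of −0.50 and −0.54. The remaining vehicle library was then assumed to vary like the other groups. Kap after 6 mmol/kg TCE was at 41446, 40709 and 44262 CPM in dosed kidneys, against 62407, 59069 and 50180 CPM in TCE vehicle kidneys. These groups did not overlap either, but the log2 fold change of −0.44 ± 0.10 missed the threshold (edgeR adjusted p = 0.0821). It passed without TCE vehicle replicate 3, the lowest of its group, at −0.53 and adjusted p = 0.0330. Without the 2 TCE libraries that hold adrenal or many principal cell transcripts, neither of them in these groups but both in the estimate of spread, it was −0.43 with adjusted p = 0.0400.

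Slc27a2, the third S3 marker, was not called in kidney. It had 8152, 5997 and 6700 CPM at 6 mmol/kg PCE, against 6412 and 6071 CPM in PCE vehicle kidneys (log2 fold change 0.16 ± 0.12, edgeR adjusted p = 0.551). After 6 mmol/kg TCE it had 5876, 5444 and 6233 CPM, against 8162, 6671 and 6749 CPM in TCE vehicle kidneys. All dosed kidneys of TCE were below all vehicle kidneys, with a log2 fold change of −0.30 ± 0.10 that did not pass (edgeR adjusted p = 0.279).

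In edgeR, 2 of the 10 markers were therefore called lower and 0 higher at 6 mmol/kg PCE, beside 3.83% of all 14216 genes called in either direction (2.06% lower and 1.77% higher). With TCE at that dose, 1 was called lower and 0 higher, beside 0.176% of all genes called (0.113% lower and 0.0633% higher). DESeq2 called 4 at 6 mmol/kg PCE, adding Slc6a19 as higher and Lrp2 as lower, and 2 at 6 mmol/kg TCE, adding Kap as lower. The shares of all genes given here and below are those of edgeR, and those of DESeq2 are not reported here. The median log2 fold change at 6 mmol/kg PCE was −0.52 over the 3 S3 markers, 0.01 over the 7 S1/S2 markers and 0.03 over all genes. With TCE it was −0.44 over the S3 markers, 0.05 over the S1/S2 markers and 0.01 over all genes.

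**Figure D2:**
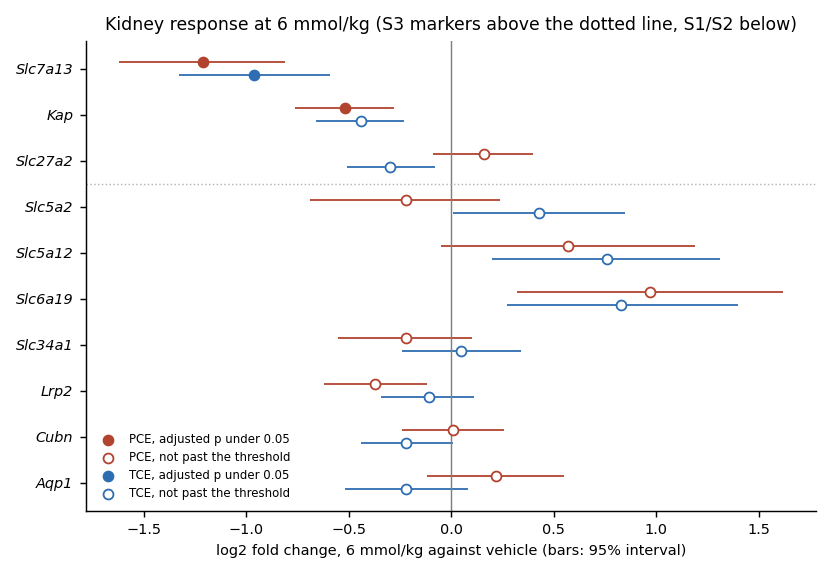
Log2 fold change of each marker in kidney at 6 mmol/kg against vehicle, with its 95% interval, for PCE (red) and TCE (blue); filled points passed an adjusted p of 0.05. Slc7a13 (−1.21 and −0.96) and, with PCE, Kap (−0.52) are the filled points, and Slc6a19 (0.97 and 0.83) lies farthest to the right.

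None of the 7 S1/S2 markers passed in edgeR at 6 mmol/kg, and their directions were mixed. DESeq2 called Slc6a19 higher (0.97, adjusted p = 0.0152) and Lrp2 lower (−0.37, adjusted p = 0.0382) at 6 mmol/kg PCE and none with TCE. The apical amino acid transporter Slc6a19 had the largest difference. It was at 799.3, 411.0 and 752.7 CPM at 6 mmol/kg PCE, against 308.8 and 358.8 CPM in PCE vehicle kidneys, and at 538.6, 458.1 and 374.5 CPM at 6 mmol/kg TCE, against 235.8, 254.8 and 279.4 CPM in TCE vehicle kidneys. The dosed kidneys were above the vehicle kidneys in both solvents, at log2 fold changes of 0.97 ± 0.31 (edgeR adjusted p = 0.0876) and 0.83 ± 0.27 (adjusted p = 0.242). Without PCE replicate 2, the lowest of its group, the PCE value was 1.20 with adjusted p = 0.0193.

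Slc5a12, the lactate transporter whose level is the least certain, had 45.8, 33.3 and 55.1 CPM at 6 mmol/kg PCE, against 27.4 and 32.8 CPM in PCE vehicle kidneys (log2 fold change 0.57 ± 0.30, edgeR adjusted p = 0.349). After 6 mmol/kg TCE it had 32.6, 29.9 and 24.0 CPM, against 13.6, 15.8 and 21.8 CPM in TCE vehicle kidneys (0.76 ± 0.27, adjusted p = 0.289). The dosed kidneys were higher in both, and neither difference passed.

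Of the receptors that take up filtered protein, Lrp2 had 2288, 2986 and 3109 CPM at 6 mmol/kg PCE, against 3593 and 3643 CPM in PCE vehicle kidneys. All dosed kidneys were lower, with a log2 fold change of −0.37 ± 0.12 and an edgeR adjusted p of 0.0876. Without PCE replicate 3 it passed, at −0.47 and adjusted p = 0.0423, and without the 2 TCE libraries that stand apart it passed at −0.37 and adjusted p = 0.0422. Its log2 fold change at 6 mmol/kg TCE was −0.11 ± 0.11. Its partner Cubn, which Lrp2 helps to internalize, was at 0.01 ± 0.12 with PCE and −0.22 ± 0.11 with TCE, neither passing. Lrp2 and Cubn have the longest transcripts of the set, 15460 and 11262 bases, and Kap the shortest, 707 bases. The slope of a library's log2 level on transcript length, over 10759 other genes, was −0.106 to 0.095 per doubling in the kidney libraries. With the length and GC slopes as covariates, Lrp2 was called lower with PCE (−0.39, edgeR adjusted p = 0.0484) and Kap with TCE (−0.39, adjusted p = 0.0317).

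The other 3 S1/S2 markers differed less. Slc5a2 was at 781.9, 919.6 and 1044 CPM at 6 mmol/kg PCE, against 1042 and 1090 CPM in PCE vehicle kidneys, and at 857.4, 756.8 and 870.7 CPM at 6 mmol/kg TCE, against 486.1, 699.3 and 655.3 CPM in TCE vehicle kidneys. The dosed kidneys overlapped the vehicle kidneys with PCE and lay above them with TCE, and the log2 fold changes of −0.22 ± 0.22 and 0.43 ± 0.20 did not pass. Slc34a1 was at 9562, 11446 and 12452 CPM at 6 mmol/kg PCE, against 13007 and 13045 CPM in PCE vehicle kidneys, and at 10075, 9987 and 11482 CPM at 6 mmol/kg TCE, against 9406, 11459 and 9549 CPM in TCE vehicle kidneys. It was thus lower in all PCE kidneys and overlapped with TCE, with log2 fold changes of −0.22 ± 0.16 and 0.05 ± 0.14, and Aqp1 was at 0.22 ± 0.16 and −0.22 ± 0.14, none passing.

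**Figure D3:**
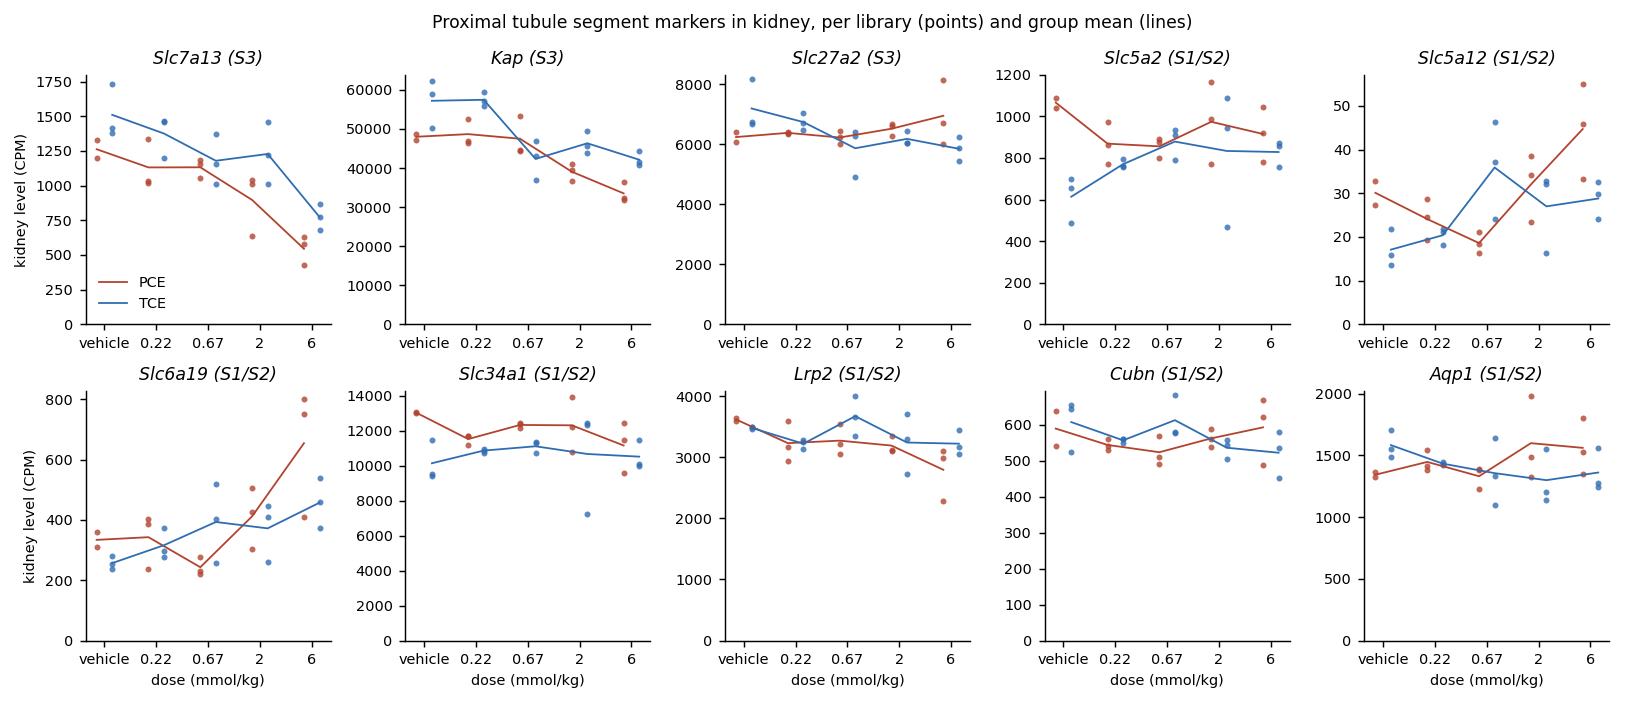
Level of each marker (CPM) in kidney by dose in mmol/kg for PCE (red) and TCE (blue); points are libraries and lines join group means. Slc7a13 with PCE stays between 1022 and 1339 CPM up to 0.67 mmol/kg and lies between 425.8 and 631.8 CPM at 6 mmol/kg.

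At the lower doses, edgeR called 0 of the 10 markers for either solvent. The share of all genes called was 0% at 0.22 mmol/kg of both solvents, 0% and 0.00703% at 0.67 mmol/kg PCE and TCE, and 0.0141% and 0% at 2 mmol/kg PCE and TCE. At an unadjusted p under 0.05 there were 0, 1 and 2 markers for PCE and 0, 5 and 4 for TCE at 0.22, 0.67 and 2 mmol/kg. Of all 14216 genes, 882, 1173 and 869 had such a p for PCE and 728, 1762 and 606 for TCE. DESeq2 called 2, both at 0.67 mmol/kg TCE: Kap at −0.44 (adjusted p = 0.0133) and Slc5a12 at 1.07 (adjusted p = 0.0222). In edgeR the same values were −0.43 ± 0.10 (adjusted p = 0.173) and 1.07 ± 0.27 (adjusted p = 0.198).

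Kap had 46983, 43068 and 36982 CPM at 0.67 mmol/kg TCE, against 62407, 59069 and 50180 CPM in TCE vehicle kidneys. All dosed kidneys were lower, and the lowest is replicate 3, the library with adrenal cortex transcripts. Without replicate 1 of that group both passed, Kap at −0.52 (edgeR adjusted p = 0.0299) and Slc5a12 at 1.29 (adjusted p = 0.0245). Without replicate 3 of 0.67 mmol/kg TCE and replicate 2 of 2 mmol/kg TCE, the libraries that stand apart, 0 markers were called at 0.67 or 2 mmol/kg TCE.

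The trend over the 5 dose levels, fitted on their rank within 1 solvent and given as log2 change per dose step, was called lower for 2 markers with PCE. It was −0.28 ± 0.06 for Slc7a13 (edgeR adjusted p = 0.0167) and −0.14 ± 0.03 for Kap (adjusted p = 0.0105), beside 3.48% of 13427 genes called and 1.48% called lower. Slc7a13 averaged 1262 ± 92.5 CPM in PCE vehicle kidneys (SD, n = 2), and then 1131 ± 180.0, 1132 ± 70.4, 896.4 ± 227.1 and 544.7 ± 106.6 CPM (n = 3 each) at 0.22, 0.67, 2 and 6 mmol/kg PCE. Kap averaged 48011 ± 1055 CPM in PCE vehicle kidneys, and then 48688 ± 3458, 47504 ± 5095, 39065 ± 2147 and 33522 ± 2640 CPM. Without replicate 3 of 6 mmol/kg PCE the Slc7a13 trend had adjusted p = 0.0544.

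With TCE, edgeR called 0 of 10 trends, beside 0.0523% of 13374 genes. The count at an unadjusted p under 0.05 was 5, beside 1228 of the 13374 genes. DESeq2 called 3, Slc7a13 and Kap lower and Slc6a19 higher. The Slc7a13 trend was −0.20 ± 0.04 with edgeR adjusted p = 0.0752, and −0.23 (adjusted p = 0.0134) without replicate 2 of 2 mmol/kg TCE. Without the 2 TCE libraries that stand apart it was −0.23 (adjusted p = 0.00932), and the Kap trend was −0.12 (adjusted p = 0.0409).

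Differences between PCE and TCE were tested as the PCE fold change minus the TCE fold change at each of the 4 doses, for 1 pair of compounds, with p-values adjusted over all genes. None of the 10 markers passed at any dose in edgeR, beside 0.0211% of all genes called at 6 mmol/kg and 0% at the lower doses. At 0.22, 0.67, 2 and 6 mmol/kg, 0, 4, 1 and 2 markers had an unadjusted p under 0.05, and DESeq2 called 0, 1, 0 and 0. Of all 14216 genes, 637, 2279, 598 and 1086 had such a p. For Slc7a13 the difference at 6 mmol/kg was −0.25 ± 0.27 on the log2 scale, with a 95% interval of −0.80 to 0.30, and for Kap it was −0.08 ± 0.16 with an interval of −0.40 to 0.24. Effects of either sign within these intervals are possible, so these data do not show that the solvents act alike. For Slc27a2 the fold changes were 0.16 with PCE and −0.30 with TCE, a difference of 0.45 ± 0.16 with an interval of 0.13 to 0.78 (edgeR adjusted p = 0.428).

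The largest difference in the set was that of Slc5a12 at 0.67 mmol/kg. It had 16.3, 18.5 and 21.1 CPM with PCE, against 27.4 and 32.8 CPM in PCE vehicle kidneys, and 24.1, 46.4 and 37.1 CPM with TCE, against 13.6, 15.8 and 21.8 CPM in TCE vehicle kidneys. The log2 difference of −1.76 ± 0.40 (95% interval −2.59 to −0.94) did not pass in edgeR (adjusted p = 0.157) and did in DESeq2 (adjusted p = 0.00570).

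The vehicle groups bear on these differences. Between PCE vehicle and TCE vehicle kidneys, none of the 10 markers passed in edgeR or DESeq2, beside 0% of all genes in edgeR. At an unadjusted p under 0.05 there were 4, beside 1158 of all 14216 genes. Slc5a2 was at 1042 and 1090 CPM in PCE vehicle kidneys, against 486.1, 699.3 and 655.3 CPM in TCE vehicle kidneys (log2 0.80 ± 0.22, unadjusted p = 0.00165, edgeR adjusted p = 0.466). Slc5a12 was higher by 0.82 ± 0.29 and Slc34a1 by 0.36 ± 0.16 in PCE vehicle kidneys, and Kap was lower there by −0.25 ± 0.12, with adjusted p of 0.511, 0.580 and 0.610. With both vehicle groups pooled, 5 markers were called at 6 mmol/kg PCE: Slc7a13, Kap and Lrp2 lower, Slc6a19 and Slc5a12 higher. The share of all genes called with pooled vehicles is not reported here.

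The S3 and S1/S2 levels were set against each other within each library, as the mean log2(CPM + 1) of the 3 S3 markers minus that of the 7 S1/S2 markers. It compares markers by the segment the rule gives them, and was not shown to measure the segments themselves. This difference averaged 2.39 ± 0.18 at 6 mmol/kg PCE (SD, n = 3), against 3.04 ± 0.08 in PCE vehicle kidneys (n = 2). It averaged 2.80 ± 0.19 at 6 mmol/kg TCE, against 3.58 ± 0.24 in TCE vehicle kidneys (n = 3 each). In neither solvent did the dosed libraries overlap the vehicle libraries of the same solvent. The vehicle groups did not overlap each other either, with 3.09 and 2.98 for PCE, against 3.84, 3.52 and 3.37 for TCE. The 6 mmol/kg TCE libraries, at 2.68, 2.70 and 3.01, overlapped the PCE vehicle libraries. The values are a description, with no test. The S3 mean was 12.28 at 6 mmol/kg PCE, against 12.82 in PCE vehicle kidneys, and 12.49 at 6 mmol/kg TCE, against 13.05 in TCE vehicle kidneys. The S1/S2 mean was 9.90 with PCE, against 9.78, and 9.69 with TCE, against 9.48. Replicate 2 of 2 mmol/kg TCE, where S1/S2 markers were low, had a difference of 3.62, against 2.98 and 2.91 in the other replicates of its group.

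**Figure D4:**
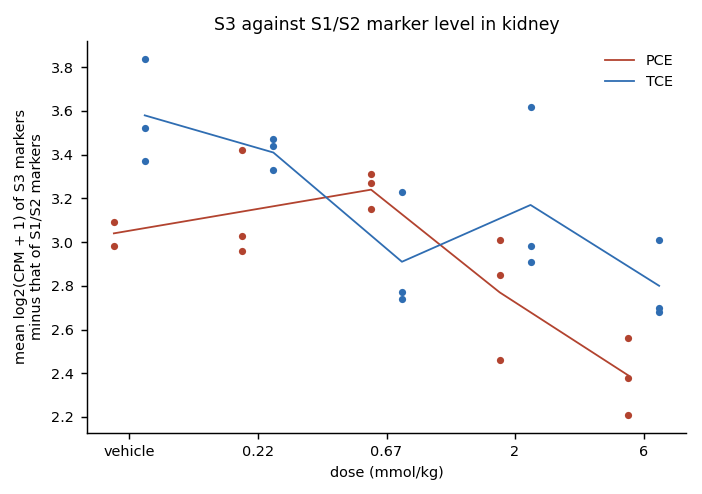
Mean log2(CPM + 1) of the 3 S3 markers minus that of the 7 S1/S2 markers in each kidney library (points) by dose in mmol/kg, for PCE (red) and TCE (blue), with lines through group means. The lowest library of the plot, at 2.21, is 1 of the 6 mmol/kg PCE kidneys, and the highest, at 3.84, is replicate 1 of TCE vehicle.

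Markers of other cells were compared over the same libraries. Of 51 tested markers in 13 lists, edgeR called 0 at 6 mmol/kg PCE and 0 at 6 mmol/kg TCE, and 8 and 6 had an unadjusted p under 0.05. Of all 14216 genes, 2330 and 1439 had such a p. The 5 podocyte markers summed to 346.9 to 383.2 CPM at 6 mmol/kg PCE, against 308.5 to 362.5 CPM in PCE vehicle kidneys, and to 312.5 to 359.8 CPM at 6 mmol/kg TCE, against 125.4 to 338.2 CPM in TCE vehicle kidneys. The 4 macrophage markers summed to 49.6 to 69.1 CPM at 6 mmol/kg PCE, against 65.7 to 86.0 CPM in PCE vehicle kidneys, and to 68.0 to 80.4 CPM at 6 mmol/kg TCE, against 98.1 to 131.2 CPM in TCE vehicle kidneys. The median log2 fold change over the same 4 markers was 0.70 with PCE and 0.01 with TCE, so the sums and the medians differ in sign. The 6 markers of injured tubule summed to 13.2 to 17.1 CPM at 6 mmol/kg PCE, against 9.34 to 9.91 CPM in PCE vehicle kidneys, and to 9.70 to 18.2 CPM at 6 mmol/kg TCE, against 10.5 to 15.9 CPM in TCE vehicle kidneys. With PCE, sums of other lists also did not overlap between groups, which is a description of 3 dosed and 2 vehicle kidneys. The distal convoluted tubule markers summed to 272.8 to 390.0 CPM at 6 mmol/kg PCE, against 442.7 to 475.1 CPM in PCE vehicle kidneys, and the intercalated cell markers to 282.2 to 284.6 CPM, against 296.8 to 316.5 CPM. The thick ascending limb markers summed to 72.2 to 104.5 CPM at 6 mmol/kg PCE, against 52.3 to 70.3 CPM in PCE vehicle kidneys, and the endothelial markers to 64.4 to 101.3 CPM, against 58.9 to 64.3 CPM. The erythroid markers, with 1 at 0 throughout each group, summed to 0.816 to 1.31 CPM at 6 mmol/kg PCE, against 1.34 to 1.56 CPM in PCE vehicle kidneys. With TCE at that dose these 5 lists overlapped with vehicle. No marker of the other lists given here was at 0 in all libraries of these groups. Their part in the marker results was not tested. The injury marker Havcr1 (KIM-1) had a called PCE dose trend of 0.32 ± 0.08 (edgeR adjusted p = 0.0410), averaging 7.07 CPM at 6 mmol/kg PCE, against 2.49 CPM in PCE vehicle kidneys. It was 1 of 6 injury markers, whose median trend was −0.06, and the other 5 were not called.

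Other proximal tubule genes were described by lists. At 6 mmol/kg, edgeR called 3.83% of all 14216 genes with PCE and 0.176% with TCE. Those with an unadjusted p under 0.05 were 2330 and 1439, for comparison with the lists that follow. Calls of single genes in these lists were not checked under the alternatives run for the markers, such as leaving out a library. Of 11 further S3 genes, 1 was lower and 0 higher at 6 mmol/kg of each solvent, and the median log2 fold change was −0.18 with PCE and −0.39 with TCE, beside 0.03 and 0.01 over all genes. The gene was Slc22a7, an organic anion transporter, at 209.4 ± 34.3 CPM at 6 mmol/kg PCE, against 453.8 ± 126.4 CPM in PCE vehicle kidneys (log2 −1.12 ± 0.25, edgeR adjusted p = 0.0119). After 6 mmol/kg TCE it was at 266.5 ± 7.95 CPM, against 595.0 ± 116.4 CPM in TCE vehicle kidneys (−1.16 ± 0.23, adjusted p = 0.0360). Of 13 further S1/S2 genes, edgeR called 0 with either solvent, and 1 with PCE and 3 with TCE had an unadjusted p under 0.05, with medians of 0.02 and 0.31.

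Of 16 genes whose products work with the markers, 2 were lower at 6 mmol/kg PCE, beside 0 with TCE, where 3 had an unadjusted p under 0.05. Lrpap1, the chaperone that keeps megalin from binding its ligands too early, was at 827.6 ± 13.1 CPM at 6 mmol/kg PCE, against 1079 ± 10.5 CPM in PCE vehicle kidneys (log2 −0.38 ± 0.08, edgeR adjusted p = 0.00625). Slc9a3r1 (NHERF1), a scaffold that anchors the Slc34a1 transporter, was at 445.8 ± 53.6 CPM, against 627.1 ± 67.0 CPM (−0.49 ± 0.11, adjusted p = 0.0103). Slc3a1, the chain with which the Slc7a13 protein pairs, was at −0.08 ± 0.11 with PCE and −0.33 ± 0.10 with TCE, neither passing.

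Of 10 androgen-responsive kidney genes other than Kap, 3 were lower and 0 higher at 6 mmol/kg PCE, with a median of −0.57. They were Odc1, the first enzyme of polyamine synthesis (−1.50 ± 0.36, edgeR adjusted p = 0.0193), the anion transporter Slco1a1 (−0.94 ± 0.24, adjusted p = 0.0259) and the cytochrome P450 Cyp2j13 (−1.02 ± 0.23, adjusted p = 0.0127). With TCE 0 of the 10 were called, 2 had an unadjusted p under 0.05, and the median was −0.33. Of 7 tested tubule transcription factors edgeR called 0 with either solvent, with 1 at an unadjusted p under 0.05 for PCE and 2 for TCE.

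Of 12 fatty acid genes driven by PPARa, the fatty acid receptor of which Slc27a2 is also a known target in liver, 9 were higher and 0 lower at 6 mmol/kg PCE in kidney, with a median log2 fold change of 1.76. With TCE 0 were called, 7 had an unadjusted p under 0.05, and the median was 0.50. With PCE the thioesterase Acot1 was at 399.9 ± 174.4 CPM, against 76.8 ± 7.19 CPM in PCE vehicle kidneys (2.38 ± 0.29, edgeR adjusted p = 8.91e-05). The pantetheinase Vnn1 changed by 1.79 ± 0.24 (adjusted p = 0.000256), the peroxisomal thiolase Acaa1b by 1.73 ± 0.25 (adjusted p = 0.000475) and the fatty acid hydroxylase Cyp4a10 by 2.95 ± 0.43 (adjusted p = 0.000497). Acot1 and Cyp4a10 have near-identical relatives, so their levels are uncertain. Slc27a2 in the same kidneys was at 0.16 ± 0.12.

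In liver, Slc27a2 was higher after 6 mmol/kg of either solvent. It was at 2590, 1832 and 2240 CPM at 6 mmol/kg PCE, against 911.3, 810.4 and 1020 CPM in PCE vehicle livers (log2 1.28 ± 0.17, edgeR adjusted p = 0.000260), beside 5.84% of 13174 liver genes called, 2.28% higher and 3.56% lower. After 6 mmol/kg TCE it was at 1833, 1890 and 1941 CPM, against 1003, 1084 and 918.9 CPM in TCE vehicle livers (0.91 ± 0.17, adjusted p = 0.00699), beside 1.31% of liver genes called, 0.539% higher and 0.767% lower. All dosed livers were above all vehicle livers. Without TCE vehicle replicate 3 the TCE value was 0.85 with adjusted p = 0.0696. The means at 0.22, 0.67 and 2 mmol/kg PCE were 1015 ± 107.3 (n = 3), 1214 ± 109.2 (n = 2) and 1717 ± 165.4 CPM (n = 3). Those at 0.22, 0.67 and 2 mmol/kg TCE were 1335 ± 82.0, 1065 ± 55.9 and 1452 ± 479.5 CPM (n = 3 each), which did not follow the order of doses. A liver at 2 mmol/kg TCE, with 2003 CPM, was above all 3 livers at 6 mmol/kg TCE. Liver libraries held 88048143 to 125880542 counts in the vehicle and 6 mmol/kg groups, and 30932385 to 65112568 counts at the doses between. Depth thus differed by dose, and its part in these levels was not tested.

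The kidney and liver responses of Slc27a2 differed. The kidney log2 fold change minus the liver one, from a fit of all 58 libraries, was −1.13 ± 0.21 at 6 mmol/kg PCE (edgeR adjusted p = 0.00458, beside 0.709% of 14949 genes called, 0.334% higher and 0.375% lower) and −1.21 ± 0.20 at 6 mmol/kg TCE (adjusted p = 0.00176, beside 0.328%, of which 0.127% higher and 0.201% lower). Both passed in every alternative run, 15 for PCE and 16 for TCE. Kidney and liver libraries carry the same sample and replicate numbers, but whether they come from the same mice is not stated. The fit and its alternatives had no term for the mouse and took the libraries as independent. Vehicle kidneys still had the higher level, 6813 ± 799.6 CPM (SD, n = 5), against 957.9 ± 97.3 CPM in vehicle livers (n = 6).

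**Figure D5:**
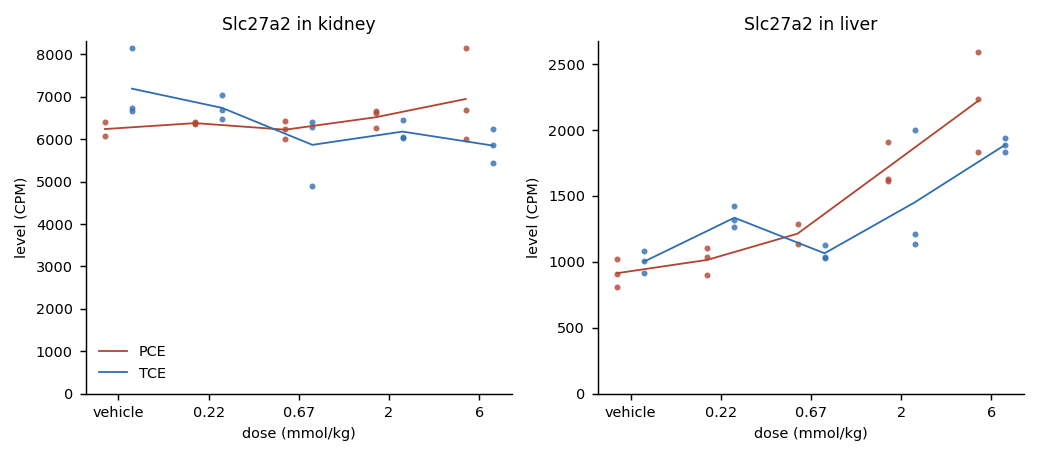
Slc27a2 level (CPM) by dose in mmol/kg in kidney (left) and liver (right) for PCE (red) and TCE (blue); points are libraries, lines join group means, and the axes of the panels differ. In liver the 6 mmol/kg libraries lie between 1832 and 2590 CPM, above all vehicle libraries, while in kidney the 6 mmol/kg PCE libraries span 5997 to 8152 CPM.

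Lrp2 was the other marker called in liver, at 0.119, 1.09 and 0.838 CPM at 6 mmol/kg PCE, against 1.75, 1.85 and 3.21 CPM in PCE vehicle livers (log2 −1.73 ± 0.49, edgeR adjusted p = 0.0401). These are levels of 14 to 139 counts in dosed and 168 to 360 counts in vehicle livers, and the call was lost in 8 of 12 alternatives. Leaving out any of the 3 vehicle livers or dosed replicate 1 or 3 was enough (adjusted p = 0.0569 to 0.154). Its kidney and liver responses were not shown to differ (1.36 ± 0.49, edgeR adjusted p = 0.190), except without liver replicate 2 of 6 mmol/kg PCE (1.86, adjusted p = 0.0477).

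Across the 29 kidney libraries, some markers moved together. These correlations of log2(CPM + 1) are descriptions over libraries that share groups. Slc7a13 and Kap had Pearson r = 0.79, Slc5a12 and Slc6a19 r = 0.90, Slc5a2 and Slc34a1 r = 0.86, and Slc27a2 and Aqp1 r = 0.71. Slc7a13 ran opposite to Slc6a19 (r = −0.81) and Slc5a12 (r = −0.71). Slc27a2 had r = 0.09 (Spearman's rho = 0.42) with Slc7a13 and r = 0.31 (rho = 0.32) with Kap, both lower than the r = 0.79 (rho = 0.80) of Slc7a13 with Kap. Cubn had no r above 0.42 with any other marker.

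Among 11455 genes averaging at least 1 CPM in kidney, the gene most like Slc7a13 was Frzb, a secreted Wnt antagonist (r = 0.958), and the gene most like Kap was the transporter Slco3a1 (r = 0.922). Slc27a2 was nearest to Ahcy, an enzyme of the methionine cycle (r = 0.851), with Cth and Dmgdh next. Of the S1/S2 markers, Slc5a2 was nearest to the phosphate transporter Slc34a3 (r = 0.896), Slc5a12 to the NADPH oxidase Nox4 (r = 0.925) and Slc6a19 to Fbxo21 (r = 0.923). The basolateral glucose transporter Slc2a2 was second for both Slc6a19 (r = 0.922) and Slc5a12 (r = 0.893). Slc34a1 was nearest to C2cd2l (r = 0.890), Lrp2 to St8sia1 (r = 0.900) and Aqp1 to Csad (r = 0.832).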

How the data were processed

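RNA was extracted from kidney and liver and libraries were made with TruSeq Total RNA kits, per the labels' protocols. The deposited tables hold raw read counts per RefSeq transcript, with a column for each library, per the file headers. Where the deposited column carries a decimal dose (0.22 and 0.67 mmol/kg) it was handled as raw read counts, not estimated counts, per file headers. All its values are whole, and every other column was handled in the same way. CASAVA 1.8.2, TopHat2 2.0.10, HTSeq and mm10 appear, without roles, in what the submitters' processing notes list. Ambiguous reads (19.68 to 21.39% of kidney libraries) and reads in no feature (20.49 to 27.53%) were left out.

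Counts were summed to 24122 genes and tested in edgeR 4.0.16 (R 4.3.3) with TMM, filterByExpr and a robust, two-sided quasi-likelihood F test. All 29 kidney libraries entered 1 fit, and adjusted p under 0.05 over all genes tested was a call. Each SE was derived from the log2 fold change and its F value. No 2 replicates of a group looked like 1 library deposited again (lowest chi-square 14.57 per degree of freedom among 28 pairs), and nothing says whether their spread is partly technical. The 10 segment markers, the gene lists and the naming rule were chosen with earlier results of these data known. The rule names all 10 markers, the 3 genes most like each, and up to 4 called genes of a list in each direction; Slc3a1 and Havcr1 were named after their values were seen, and some genes are not reported here. Alternatives were DESeq2 1.42.0, its size factors, no count filter, a replicate term, length and GC slopes, the largest transcript, 1 solvent alone, pooled vehicles, linear dose, each library left out, and, chosen after seeing the data, 2 libraries left out together. Values of single genes under them were kept for the 10 markers only, so calls of other named genes were not checked.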

Additional observations from a re-analysis of the deposited data

Results flagged for a closer look

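The difference between the kidney and the liver response of Slc27a2 passed the test of the difference itself at the highest dose of both solvents. That test took kidney and liver libraries as independent, although whether they share mice is not stated. At 6 mmol/kg PCE the kidney log2 fold change minus the liver one was −1.13 ± 0.21 (edgeR adjusted p = 0.00458), from 0.16 ± 0.12 in kidney and 1.28 ± 0.17 in liver. At 6 mmol/kg TCE it was −1.21 ± 0.20 (edgeR adjusted p = 0.00176), from −0.30 ± 0.10 in kidney and 0.91 ± 0.17 in liver. Groups of 3 or fewer libraries are too small for the test for a lone library far from the others.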

How the results depend on the processing

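Counts are of the 10 markers called. Shares of all genes called under the alternatives of this paragraph are not reported here. DESeq2 called 2 at 0.67 mmol/kg TCE (0 in edgeR), 2 at 6 mmol/kg TCE (1), 4 at 6 mmol/kg PCE (2), 1 for PCE minus TCE at 0.67 mmol/kg (0) and 3 in the TCE dose trend (0). Pooling both vehicle groups gave 1 at 2 mmol/kg PCE (0) and 5 at 6 mmol/kg PCE (2). Length and GC slopes gave 2 at 6 mmol/kg TCE (1) and 3 at 6 mmol/kg PCE (2). Without the 2 TCE libraries that stand apart, left out after seeing the data, there were 2 at 6 mmol/kg TCE (1), 3 at 6 mmol/kg PCE (2) and 2 in the TCE dose trend (0). Dose in mmol/kg gave 1 in the TCE dose trend (0) and 4 in the PCE dose trend (2). In liver, libraries of 1 solvent alone gave 0 with TCE (1) and 1 with PCE (2), and no count filter gave 1 with PCE (2). The cause was not tested.

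Leaving out each library in turn gave 0 to 2 markers at 0.67 and at 6 mmol/kg TCE, 1 to 3 at 6 mmol/kg PCE, 0 to 1 in the TCE and 1 to 2 in the PCE dose trend, 0 to 1 in liver with TCE and 1 to 2 with PCE, and 1 to 2 for kidney minus liver with PCE. The S3 minus S1/S2 difference to vehicle, −0.65 for PCE and −0.78 for TCE, then ranged from −0.74 to −0.56 and from −0.89 to −0.65.

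Replicate numbers gave no sign of pairing dosed with vehicle kidneys: the correlations of deviations from group means ran from −0.43 to 0.18 over 20 pairs. Kidney and liver libraries of the same number were not compared in this way. Groups of 2 or 3 libraries are too small for such correlations to exclude a pairing. The replicate block gave 1 marker in liver with PCE (2 without it) and the same number in every other comparison. With the block, 489 genes were called at 6 mmol/kg PCE and 23 at 6 mmol/kg TCE, against 545 and 25 without it.

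Of 2892 values of single markers under alternatives, 2781 kept their call or moved by less than their SE, 29 gained a call, 16 lost one, 66 uncalled ones moved by more, and none that was called changed sign. The PCE vehicle group of 2 kidneys limits every PCE comparison.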
